A study of Mus musculus with 10 samples.

Results

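The genes of cell division and proliferation were followed in treated mouse skin: 47 genes chosen by symbol, all present among the 24454 rows of the count table and all among the 15543 genes that passed the filter on low counts. By the stage at which they act, 5 are G1 genes (the D cyclins and the Myc factors), 15 are S phase genes and 27 are G2/M genes. Skin came from C57BL/6 mice of 2 genotypes, wild type (WT) and TTP delta ARE knock-in (*Zfp36*ΔARE), littermates that were 7 weeks old when treatment began. The knock-in lacks an instability element in the 3′-UTR of *Zfp36*, the gene of the mRNA-decay factor tristetraprolin (TTP), in every cell of the body. All mice of both groups received the mutagen DMBA once (400 nmol) and then the tumor promoter TPA (10 nmol per application) for 20 weeks, and full-thickness skin that held no tumor was sequenced, 1 library per mouse and 5 mice per group. Untreated skin was not analysed here.

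Cell division in skin takes place in a few compartments. Basal keratinocytes of the epidermis divide to renew it, and the matrix of a growing hair follicle, the bulb of cells around the dermal papilla, holds some of the fastest-dividing cells of the body, which move up and differentiate into the hair shaft and the inner root sheath. D cyclins and Myc factors drive cells through G1, E2F factors then switch on the genes of DNA replication, and a later wave under FOXM1 and MYBL2 switches on the genes of mitosis. The mRNAs of the S phase wave and of the G2/M wave therefore mark different stretches of the same cycle. The members were grouped by the stage at which they act, and when each mRNA peaks was not measured here. In a homogenate of whole skin, more dividing cells and more of an mRNA per dividing cell cannot be told apart.

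*Zfp36* lay between 1824 and 2496 normalized counts in WT and between 4196 and 6134 in *Zfp36*ΔARE libraries. Total counts ranged from 21638400 to 32583217 in WT and from 19595035 to 36419573 in *Zfp36*ΔARE libraries. Of the 15543 genes, 5335 passed an adjusted p of 0.05 (quasi-likelihood test of edgeR, adjusted by Benjamini-Hochberg), 2373 higher and 2962 lower in *Zfp36*ΔARE skin. The libraries also differed in other marks. Y-linked mRNAs (*Ddx3y*, *Eif2s3y*, *Kdm5d* and *Uty*, summed) had 3349 to 4262 counts in *Zfp36*ΔARE replicates 2 to 5 and at most 1 in *Zfp36*ΔARE replicate 1 and in every WT library, so that sex and genotype cannot be fully told apart. Each library also had a score for hair matrix and precortex, the mean log2(CPM + 1) of 10 genes. This score separated the groups completely, so that it and the genotype cannot be told apart either. WT replicate 3 was lowest in the score and *Zfp36*ΔARE replicate 3 highest.

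The promoters of the S phase and the G2/M genes differed in the words they hold. In 300 bases around each start site (250 before it and 50 after, RefSeq on GRCm38.p6, 35 of the 47 members matched), 3 kinds of words were searched on both strands: the cell cycle homology region (CHR), which reads TTTGAA, the CCAAT box, and 3 words of E2F sites, which were TTCCCGC, the variant TTGGCGC and the further variant TTCGCGC. Words may overlap, and a match is only a match of letters. The promoters printed here are those of *Mki67* and *Cdk1*, widely used mitotic markers, *Kif11*, a G2/M member past the test, *Mcm6*, the S phase member with the most E2F words, and *Mycn*, the member with the largest difference. They lie at chr7:135716330-135716629 on the minus strand for *Mki67*, chr10:69352863-69353162 on the minus strand for *Cdk1*, chr19:37376132-37376431 on the plus strand for *Kif11*, chr1:128359656-128359955 on the minus strand for *Mcm6* and chr12:12941787-12942086 on the minus strand for *Mycn*. Sequences are written 5′ to 3′ on the strand of the gene, with matched words of any of the 3 kinds in capitals.
*Mki67*: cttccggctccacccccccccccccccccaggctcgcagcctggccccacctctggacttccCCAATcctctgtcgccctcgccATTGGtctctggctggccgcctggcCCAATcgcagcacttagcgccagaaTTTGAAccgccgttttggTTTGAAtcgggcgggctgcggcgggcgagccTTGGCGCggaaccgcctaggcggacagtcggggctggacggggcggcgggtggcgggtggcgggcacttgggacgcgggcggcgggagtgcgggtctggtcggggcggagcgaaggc
*Cdk1*: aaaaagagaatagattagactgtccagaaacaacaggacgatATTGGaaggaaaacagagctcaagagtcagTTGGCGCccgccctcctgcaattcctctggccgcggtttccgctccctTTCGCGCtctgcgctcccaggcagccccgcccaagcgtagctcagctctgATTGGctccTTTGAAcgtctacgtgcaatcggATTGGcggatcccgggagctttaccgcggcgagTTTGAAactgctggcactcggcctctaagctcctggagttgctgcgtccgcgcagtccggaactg
*Kif11*: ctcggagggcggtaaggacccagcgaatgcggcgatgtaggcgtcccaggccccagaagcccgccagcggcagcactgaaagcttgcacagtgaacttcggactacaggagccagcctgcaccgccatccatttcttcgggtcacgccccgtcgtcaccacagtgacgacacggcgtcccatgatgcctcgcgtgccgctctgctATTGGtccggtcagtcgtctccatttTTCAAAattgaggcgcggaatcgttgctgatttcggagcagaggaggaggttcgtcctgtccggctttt
*Mcm6*: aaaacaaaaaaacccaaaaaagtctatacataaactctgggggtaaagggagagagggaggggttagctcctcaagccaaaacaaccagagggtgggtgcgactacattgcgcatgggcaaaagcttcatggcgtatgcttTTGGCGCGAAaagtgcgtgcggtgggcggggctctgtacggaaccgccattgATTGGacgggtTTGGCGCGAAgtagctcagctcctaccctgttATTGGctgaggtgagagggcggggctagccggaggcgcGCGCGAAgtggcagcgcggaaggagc
*Mycn*: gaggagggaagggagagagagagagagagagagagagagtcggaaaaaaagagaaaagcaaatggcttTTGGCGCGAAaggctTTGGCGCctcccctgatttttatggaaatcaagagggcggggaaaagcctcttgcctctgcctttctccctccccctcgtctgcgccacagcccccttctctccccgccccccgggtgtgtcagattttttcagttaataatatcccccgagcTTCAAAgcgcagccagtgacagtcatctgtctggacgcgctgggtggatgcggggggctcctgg

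The CHR word was in 15 of 21 G2/M promoters (71.4%), in 1 of 12 S phase promoters (8.33%) and in 14.9% of the 12217 promoters of tested genes. *Mki67* and *Cdk1* each had 2 CHR words and 3 CCAAT boxes. In *Cdk1* the nearer CHR began 15 bases before the start site, and the single CHR of *Kif11* spanned bases 19 to 14 before it. The E2F words showed the opposite distribution. They were in 7 of 12 S phase promoters (58.3%), in 6 of the 7 origin licensing promoters (85.7%), in 3 of 21 G2/M promoters (14.3%) and in 15.4% of all promoters. *Mcm6* had 5 E2F words, of which 4 overlapped as 2 facing copies, and no CHR. *Mycn* held 3 E2F words and 1 CHR but no CCAAT box. The CCAAT box was in 85.7% of G2/M, 66.7% of S phase and 42.1% of all promoters. *Ccne1* and *Mybl2* had none of these words in the window.

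**Figure D1:**
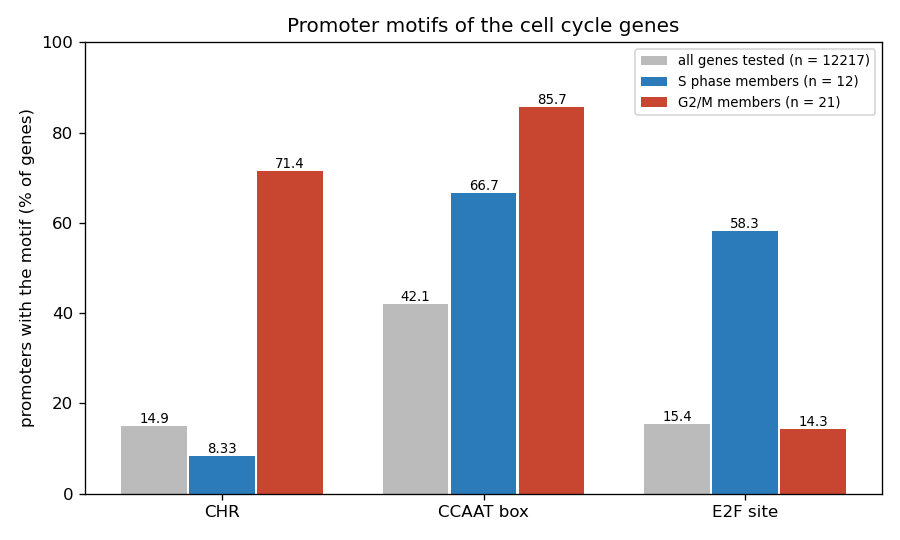
Share of promoters (percent of genes, vertical axis) with a CHR word, a CCAAT box or an E2F word within 300 bases of the start site, for all tested genes with a promoter entry (grey), S phase members (blue) and G2/M members (red). The CHR bar is tallest for G2/M members (71.4%) and the E2F bar for S phase members (58.3%).

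Across the whole set, *Zfp36*ΔARE skin tended toward higher levels by small amounts. The log2 fold change was above 0 in 46 of the 47 genes and below 0 in *Ccnd3*. Its median was 0.29, its lowest value -0.24 and its highest 1.04. Over all 15543 tested genes the median was 0.0076, and 7909 were above 0. The genes that rose past the test were *Ccnd2*, *Mycn*, *Ccne1*, *Ccna2*, *Bub1b* and *Kif11*, 6 of 47 or 12.8%, while 15.3% of all tested genes passed in this direction. None fell past the test (0 of 47, with 1 member, *Ccnd3*, called lower by DESeq2), against 19.1% of all genes. DESeq2 called 11 members higher, which added *Myc*, *Mybl2*, *Cenpe*, *Tpx2* and *Ube2c*, with adjusted p-values from 0.037 to 0.049. Over all genes DESeq2 also called more of them higher, 3046 against 2373 with edgeR. At an unadjusted p below 0.05 in edgeR, in either direction, there were 18 of 47 members and 7323 of the 15543 tested genes. Only *Mycn* also exceeded a 2-fold change, which 1.67% of all genes did. All 5 *Zfp36*ΔARE libraries exceeded all 5 WT libraries in *Ccnd2*, *Mycn*, *Ccne1* and *Mybl2*, 4 of 47, and 11.2% of all genes were set apart this way. The share of members that rose past the test was thus close to the background, and the share that fell was below it. The 95% interval of the difference included 0 in 29 of 47 members.

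**Figure D2:**
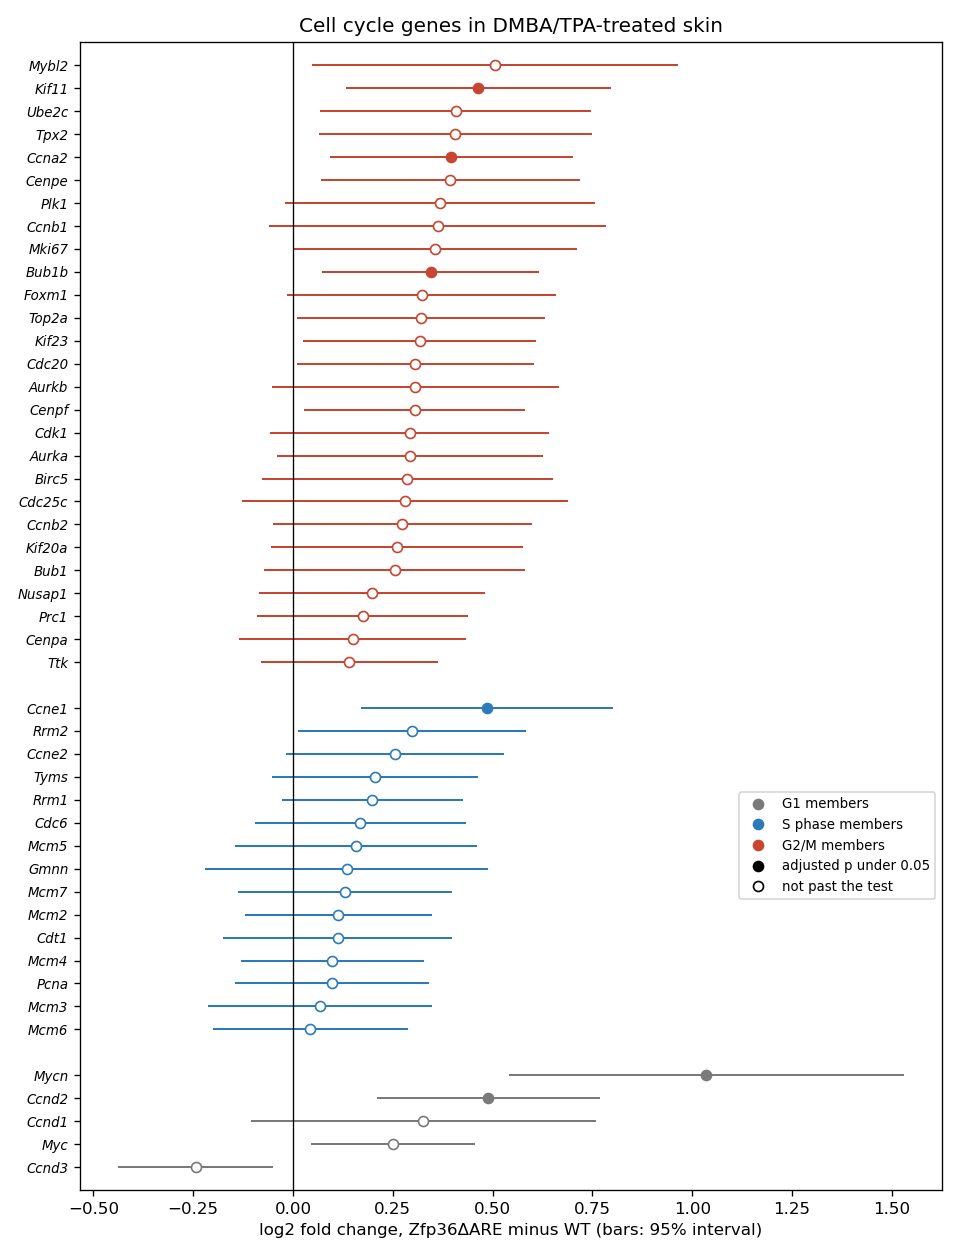
Log2 fold change of each of the 47 genes (horizontal axis, Zfp36ΔARE minus WT, with its 95% interval), grouped as G1 (grey), S phase (blue) and G2/M (red) and sorted within each group. Filled points passed an adjusted p of 0.05. Points lie to the right of 0 in all genes but Ccnd3, and most intervals are wide relative to the shift.

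Among the G1 genes, *Ccnd2* and *Mycn* rose past the test. D cyclins bind the G1 kinases and carry growth-factor signals to the retinoblastoma protein. *Ccnd2* had 8349, 7159.8, 5741, 8029 and 8896 normalized counts in WT replicates 1 to 5 and 10286, 12158, 10449, 9018 and 11669 in *Zfp36*ΔARE replicates 1 to 5. Each *Zfp36*ΔARE library was above each WT library, although WT replicate 5 and *Zfp36*ΔARE replicate 4 were close. The means were 7635 ± 1232 and 10716 ± 1238 (SD, n = 5 each; log2 fold change 0.49, standard error 0.13, adjusted p = 0.0164). *Mycn* had 575, 359, 287, 493 and 649 normalized counts in WT replicates 1 to 5 and 813, 1162, 1162, 738 and 971 in *Zfp36*ΔARE replicates 1 to 5. *Mycn*, the Myc paralog of progenitor cells, was the lowest-count G1 member in WT, and all 5 *Zfp36*ΔARE values exceeded the WT maximum. The means were 473 ± 149 and 969 ± 195 (SD, n = 5 each; log2 fold change 1.04, standard error 0.22, adjusted p = 0.00964). Both calls held with each of the 10 libraries left out in turn.

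The other D cyclins behaved differently from each other. *Ccnd1* had 3960.2, 3252, 2475, 4021 and 5427 normalized counts in WT replicates 1 to 5 and 3981, 5799, 4545, 4051 and 5620.03 in *Zfp36*ΔARE replicates 1 to 5. These ranges overlapped widely, with WT replicate 5 above 3 of the *Zfp36*ΔARE libraries (log2 fold change 0.33, standard error 0.19, adjusted p = 0.206). *Ccnd3* had 1438, 1147, 1324, 1229.7 and 1159.7 normalized counts in WT replicates 1 to 5 and 1086, 1132, 886, 1132 and 1081 in *Zfp36*ΔARE replicates 1 to 5. Here every *Zfp36*ΔARE library was below every WT library, by a gap as small as that between 1147 and 1132 (log2 fold change -0.24, standard error 0.087, adjusted p = 0.05002). The adjusted p lay just over the threshold and just under it in DESeq2 (0.041). *Myc* had 1454, 1456, 1213, 1532 and 1554 normalized counts in WT replicates 1 to 5 and 1407, 1874, 1853, 1766 and 1681 in *Zfp36*ΔARE replicates 1 to 5. *Myc*, an immediate transducer of mitogens, was above the WT range in 4 *Zfp36*ΔARE libraries but not in replicate 1 (log2 fold change 0.25, standard error 0.092, adjusted p = 0.0564).

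**Figure D3:**
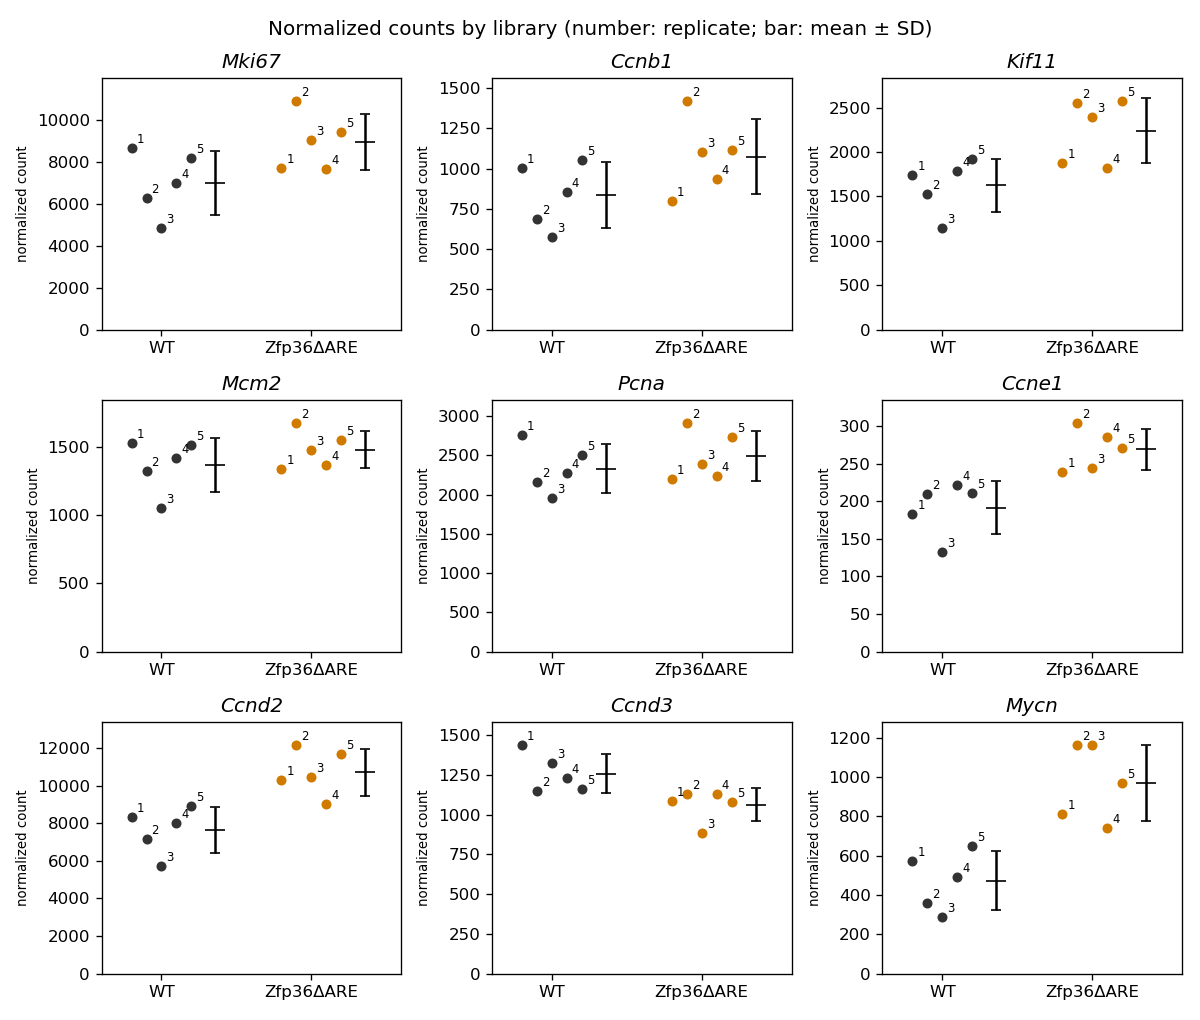
Normalized counts (vertical axes, starting at 0) of 9 cell cycle genes in each library, WT in black and Zfp36ΔARE in orange, with the replicate number beside each point and the mean ± SD at the right of each group (n = 5). Ccnd2, Ccne1 and Mycn separate the groups, Ccnd3 separates them in the other direction, and Mki67, Ccnb1, Kif11, Mcm2 and Pcna overlap, with WT replicate 3 at the bottom of all but Ccnd3.

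The E cyclins activate CDK2 to start replication, and *Ccne1* was the S phase gene that rose past the test. *Ccne1* had 183, 210.01, 133, 221 and 212 normalized counts in WT replicates 1 to 5 and 239.8, 304, 245, 286 and 272 in *Zfp36*ΔARE replicates 1 to 5. The lowest *Zfp36*ΔARE value exceeded the highest WT value. The means were 192 ± 35.8 and 269 ± 27.2 (SD, n = 5 each; log2 fold change 0.49, standard error 0.14, adjusted p = 0.0258). Leaving out WT replicate 1, *Zfp36*ΔARE replicate 2 or *Zfp36*ΔARE replicate 4 moved its adjusted p to 0.058, 0.064 and 0.051. *Ccne2* ranged between 187 and 239 in WT and between 206 and 297 in *Zfp36*ΔARE skin (log2 fold change 0.26, standard error 0.12, adjusted p = 0.124).

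The 9 origin licensing genes load or regulate the replicative helicase: the 6 subunits *Mcm2* to *Mcm7*, the loaders *Cdc6* and *Cdt1*, and *Gmnn*, the inhibitor of Cdt1. None of the 9 passed the test with edgeR, DESeq2 or limma-voom (0 at an unadjusted p below 0.05 as well), and their log2 fold changes were confined to a range from 0.043 in *Mcm6* to 0.17 in *Cdc6*, with a median of 0.11. *Mcm2* had 1529.7, 1322, 1052, 1419 and 1516 normalized counts in WT replicates 1 to 5 and 1341, 1673, 1474, 1367 and 1547 in *Zfp36*ΔARE replicates 1 to 5. WT replicates 1 and 5 were above 3 of the *Zfp36*ΔARE libraries, and WT replicate 3 alone was far below the rest (log2 fold change 0.11, standard error 0.10, adjusted p = 0.410). The 95% interval of the *Mcm2* difference ran from -0.12 to 0.35. *Cdc6* had 379, 298, 262, 320.3 and 371 normalized counts in WT replicates 1 to 5 and 343, 411, 343, 331 and 406 in *Zfp36*ΔARE replicates 1 to 5. These ranges overlapped as well (log2 fold change 0.17, standard error 0.12, adjusted p = 0.281). *Mcm3* and *Mcm6* turned slightly negative when certain single libraries were left out.

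The sliding clamp and the 3 genes of deoxynucleotide synthesis did not pass the test either. Of these, *Pcna* lay within the range of the licensing genes, while *Rrm1*, *Rrm2* and *Tyms* had larger log2 fold changes than any of them. *Pcna* had 2756, 2157, 1957, 2278 and 2505 normalized counts in WT replicates 1 to 5 and 2201, 2911, 2385, 2239 and 2732 in *Zfp36*ΔARE replicates 1 to 5. *Pcna* encodes the clamp that holds the polymerases on DNA, and its second highest value of all was in WT replicate 1 (log2 fold change 0.097, standard error 0.11, adjusted p = 0.499). *Rrm2* had 1194, 1250.4, 809, 1312 and 1253 normalized counts in WT replicates 1 to 5 and 1234, 1476, 1485, 1323 and 1646 in *Zfp36*ΔARE replicates 1 to 5. *Rrm2*, the regulated subunit of ribonucleotide reductase, was low in WT replicate 3 only and did not pass the test (log2 fold change 0.30, standard error 0.13, adjusted p = 0.0917). *Rrm1*, its partner subunit, ranged between 2447 and 3321 in WT and between 2937 and 3970.4 in *Zfp36*ΔARE skin (log2 fold change 0.20, standard error 0.10, adjusted p = 0.143). *Tyms*, which makes thymidylate, ranged between 502 and 689 in WT and between 590.5 and 804 in *Zfp36*ΔARE skin (log2 fold change 0.21, standard error 0.12, adjusted p = 0.182).

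By their median, the G2/M genes were shifted further than the S phase genes. All 27 had a log2 fold change above 0, from 0.14 in *Ttk* to 0.50 in *Mybl2*, with a median of 0.31. The S phase genes, also all above 0, had a median of 0.13. In 25 of the 27 G2/M genes the value exceeded that of every origin licensing gene. The other S phase genes overlapped the G2/M genes more. *Ccne1*, at 0.49, was above every G2/M gene except *Mybl2*, and *Rrm2* was at 0.30. By the test, 3 of 27 G2/M genes (11.1%) and 1 of 15 S phase genes (6.67%) were past the threshold, both below the 15.3% of all genes. At an unadjusted p below 0.05 the counts were 12 of 27 and 2 of 15, against 7323 of all 15543 tested genes in either direction.

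*Foxm1* and *Mybl2* encode the factors that switch on the mitotic wave. *Mybl2* had 384, 411, 177, 429 and 435 normalized counts in WT replicates 1 to 5 and 510.3, 602, 517, 478 and 502 in *Zfp36*ΔARE replicates 1 to 5. The groups did not overlap, and WT replicate 3 was far below the other WT values. The means were 367 ± 108 and 522 ± 47.1 (SD, n = 5 each; log2 fold change 0.50, standard error 0.21, adjusted p = 0.0790). Without WT replicate 3 the log2 fold change fell to 0.33 while the adjusted p moved to 0.018. *Foxm1* ranged between 781 and 1337 in WT and between 1043 and 1544 in *Zfp36*ΔARE skin (log2 fold change 0.32, standard error 0.15, adjusted p = 0.118).

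Cyclin A and the B cyclins activate CDK1, and CDC25C removes its inhibitory phosphates. *Ccna2* had 1619.99, 1304, 1108, 1468 and 1737 normalized counts in WT replicates 1 to 5 and 1535, 2005, 2003, 1701 and 2289 in *Zfp36*ΔARE replicates 1 to 5. *Ccna2* rose past the test, though WT replicates 1 and 5 exceeded the lowest *Zfp36*ΔARE library. The means were 1448 ± 250.01 and 1907 ± 294 (SD, n = 5 each; log2 fold change 0.40, standard error 0.14, adjusted p = 0.0460). *Ccnb1* had 1005, 689.8, 577, 855 and 1055 normalized counts in WT replicates 1 to 5 and 800.3, 1419.5, 1105, 936 and 1118 in *Zfp36*ΔARE replicates 1 to 5. WT replicates 1 and 5 were above *Zfp36*ΔARE replicates 1 and 4 and below the other 3 (log2 fold change 0.36, standard error 0.19, adjusted p = 0.154). *Cdk1* had 1378, 1016, 796, 1196 and 1407 normalized counts in WT replicates 1 to 5 and 1168, 1573, 1493, 1249.7 and 1615 in *Zfp36*ΔARE replicates 1 to 5. The same 2 WT libraries were above 2 *Zfp36*ΔARE libraries (log2 fold change 0.29, standard error 0.16, adjusted p = 0.163). *Ccnb2* and *Cdc25c* had log2 fold changes of 0.27 and 0.28 and did not pass the test.

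The mitotic kinases and the spindle checkpoint held 1 gene past the test of 7. *Bub1b* had 1436, 1233, 991, 1347 and 1574 normalized counts in WT replicates 1 to 5 and 1424, 1849, 1653, 1565 and 1869.8 in *Zfp36*ΔARE replicates 1 to 5. *Bub1b* encodes the checkpoint protein BUBR1, and its groups overlapped, with WT replicates 1 and 5 above the lowest *Zfp36*ΔARE library. The means were 1316 ± 221 and 1672 ± 189 (SD, n = 5 each; log2 fold change 0.34, standard error 0.12, adjusted p = 0.0495). *Plk1* had 643, 477, 392, 652 and 761 normalized counts in WT replicates 1 to 5 and 614, 918, 775, 697 and 773 in *Zfp36*ΔARE replicates 1 to 5. *Plk1*, the polo-like kinase of mitotic entry, had the largest difference of this group by size but did not pass (log2 fold change 0.37, standard error 0.17, adjusted p = 0.121). *Aurka*, *Aurkb*, *Bub1*, *Birc5* and *Ttk* had log2 fold changes between 0.14 in *Ttk* and 0.31 in *Aurkb*.

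Of the 9 genes of the centromere, spindle and midbody, *Kif11* passed the test. *Kif11* had 1747, 1526, 1148, 1787 and 1921 normalized counts in WT replicates 1 to 5 and 1880.1, 2550.2, 2391, 1824 and 2574 in *Zfp36*ΔARE replicates 1 to 5. *Kif11*, the motor that pushes the spindle poles apart, was high in *Zfp36*ΔARE replicates 2, 3 and 5 and within the WT range in replicates 1 and 4. The means were 1626 ± 302 and 2244 ± 365 (SD, n = 5 each; log2 fold change 0.46, standard error 0.15, adjusted p = 0.0362). The kinesins *Kif20a* and *Kif23* had log2 fold changes of 0.26 and 0.32. The centromere genes *Cenpa*, *Cenpe* and *Cenpf* had 0.15, 0.39 and 0.31, and the spindle and midbody genes *Tpx2*, *Nusap1* and *Prc1* had 0.41, 0.20 and 0.17. *Cenpa*, the histone variant of the centromere, ranged between 603 and 994 in WT and between 897 and 1001 in *Zfp36*ΔARE skin.

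The markers most used for proliferation were among those that did not pass. *Mki67* had 8662, 6299, 4828, 7007 and 8169.5 normalized counts in WT replicates 1 to 5 and 7708, 10898, 9027, 7659.8 and 9439 in *Zfp36*ΔARE replicates 1 to 5. *Mki67* encodes the surfactant of mitotic chromosomes stained as Ki-67. Its 2 highest WT values, in replicates 1 and 5, were above those of *Zfp36*ΔARE replicates 1 and 4. The means were 6993 ± 1528 and 8946 ± 1346 (SD, n = 5 each; log2 fold change 0.36, standard error 0.16, adjusted p = 0.104), and the 95% interval of the difference ran from 0.0029 to 0.71. *Top2a* had 6000.1, 4680.1, 3770.5, 4937 and 5964 normalized counts in WT replicates 1 to 5 and 5465, 7206, 6370.2, 5403 and 7198 in *Zfp36*ΔARE replicates 1 to 5. *Top2a*, the topoisomerase that untangles chromosomes, had the same order of libraries within each group as *Mki67* (log2 fold change 0.32, standard error 0.14, adjusted p = 0.0959). *Ube2c* had 778, 594, 478, 772 and 907 normalized counts in WT replicates 1 to 5 and 823, 1008, 972, 903 and 978 in *Zfp36*ΔARE replicates 1 to 5. *Ube2c*, a ubiquitin carrier of mitotic exit, had the smallest p of this group and still did not pass (log2 fold change 0.41, standard error 0.15, adjusted p = 0.0593). *Cdc20*, the activator of the anaphase-promoting complex, ranged between 764 and 1273 in WT and between 1024 and 1378 in *Zfp36*ΔARE skin (log2 fold change 0.31, standard error 0.13, adjusted p = 0.0948).

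The calls in the G2/M group rested on small margins. *Ccna2* and *Bub1b* kept an adjusted p below 0.05 in 2 of the 10 fits with 1 library left out (without *Zfp36*ΔARE replicate 1 and without WT replicate 5) and *Kif11* in 4 of 10 (without WT replicate 4 or 5, or *Zfp36*ΔARE replicate 1 or 4). With the set as a whole, leaving out a library gave between 2 and 9 members past the test, with 2 without *Zfp36*ΔARE replicate 2, 3 without WT replicate 1, WT replicate 2 or *Zfp36*ΔARE replicate 3, 4 or 5, and 9 without WT replicate 5.

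Levels per kilobase of exon, in FPKM from the TMM-scaled counts and the deposited gene lengths, differed widely among members. In WT skin *Pcna* was highest at 69.3 ± 9.22 FPKM (SD, n = 5), followed by *Ccnd2* at 49.6 ± 7.998, *Ccnd1* at 37.8 ± 10.8, *Top2a* at 36.4 ± 6.74 and *Mcm7* at 30.2 ± 4.87. The spreads of *Ccnd1*, *Top2a* and *Mcm7* overlapped. The lowest were *Ccne2* at 2.44 ± 0.279 and *Cdc6* at 2.60 ± 0.394, then *Cenpf* at 3.67 ± 0.599, *Ccne1* at 3.68 ± 0.685 and *Mybl2* at 3.72 ± 1.096, whose spreads overlapped. The mitotic partners *Ccnb1* and *Cdk1* were at 13.5 ± 3.29 and 15.2 ± 3.36, not apart beyond their spread.

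Most members shared the same low and high libraries within each genotype. The standard deviation within a group had a median of 18.3% of the mean in WT and 13.3% in *Zfp36*ΔARE libraries over the 47 genes (13.8% and 11.5% over all tested genes), and the ratio of the group means had a median of 1.22. WT replicate 3 had the lowest WT value in 45 of 47 members (95.7%) and in 32.2% of all tested genes, where it also had the highest WT value in 32.7%. The highest WT value was in WT replicate 1 for 19 members (40.4%, against 14.6% of all genes) and in WT replicate 5 for 25 (53.2%, against 15.7%). *Zfp36*ΔARE replicate 1 had the lowest *Zfp36*ΔARE value in 34 of 47 members (72.3%) and in 20.1% of all genes. The highest *Zfp36*ΔARE value was in replicate 2 for 21 members (44.7%, against 17.9% of all genes) and in replicate 5 for 24 (51.1%, against 19.2%). In *Zfp36*ΔARE replicates 2 and 5, 42 and 43 members (89.4% and 91.5%) were above the highest WT library, against 33.7% and 27.1% of all genes. In *Zfp36*ΔARE replicate 3 this was so for 27 members (57.4%, against 31.5% of all genes). In replicates 4 and 1 it was so for 6 and 4 members (12.8% and 8.51%), against 30.7% and 30.5% of all genes.

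*Zfp36*ΔARE replicate 1 is also the *Zfp36*ΔARE library without Y-linked counts. Against the mean of the other 4 *Zfp36*ΔARE libraries it had 0.883 times the *Ccne2* level, 0.950 times *Ccnd2*, 0.807 times *Mycn*, 0.699 times *Ccnb1* and 0.833 times *Mki67*. It was below the WT mean in 21 of 47 members (44.7%, with 10 of 15 S phase and 9 of 27 G2/M genes), a share near the 50.9% of all tested genes. With a term for Y-linked counts added to the model, 0 members and 0 of all genes passed the test (0 members and 3382 genes at an unadjusted p below 0.05; this model was fitted with edgeR alone), the median log2 fold change was -0.067 in S phase genes and 0.044 in G2/M genes, and *Mycn* stood at 0.78 (adjusted p = 0.242, edgeR). That fit sets *Zfp36*ΔARE replicate 1 alone against the 5 WT libraries. The 4 libraries with Y-linked counts were not alike either, since replicate 4 exceeded the highest WT library in 6 of 47 members and replicates 2, 3 and 5 in 27 to 43.

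To set the 2 waves side by side within each library, the mean log2(CPM + 1) of the 15 S phase genes was subtracted from that of the 27 G2/M genes. The S phase score was 5.28, 5.08, 4.77, 5.19 and 5.24 in WT replicates 1 to 5 and 5.09, 5.41, 5.25, 5.20 and 5.45 in *Zfp36*ΔARE replicates 1 to 5. WT replicate 1 was above 3 of the *Zfp36*ΔARE libraries. The G2/M score was 5.41, 5.06, 4.78, 5.26 and 5.47 in WT and 5.27, 5.69, 5.55, 5.38 and 5.68 in *Zfp36*ΔARE libraries, again with overlap. The difference of the scores was 0.12, -0.020, 0.013, 0.077 and 0.23 in WT and 0.18, 0.28, 0.30, 0.18 and 0.22 in *Zfp36*ΔARE libraries. Its means were 0.084 ± 0.097 and 0.233 ± 0.054 (SD, n = 5 each), a shift of 0.149 on the log2 scale toward G2/M genes, with WT replicate 5 inside the *Zfp36*ΔARE range. These scores are descriptions and were not tested.

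A further set of 32 other S phase genes and 34 other G2/M genes, all tested, showed how far this went beyond the members. Of the other S phase genes 29 had a log2 fold change above 0, with a median of 0.17, and 1 (3.12%) rose past the test, the exonuclease *Exo1* (log2 fold change 0.46, standard error 0.16, adjusted p = 0.0464). Of the other G2/M genes 32 were above 0, with a median of 0.26, and 7 (20.6%) rose past the test, against 15.3% of all genes. They included the nuclear-envelope receptor *Lbr* (log2 fold change 0.65, standard error 0.13, adjusted p = 0.00775), the spindle-linked *Gas2l3* (log2 fold change 0.85, standard error 0.19, adjusted p = 0.0113), the histone chaperone *Anp32e* (log2 fold change 0.33, standard error 0.077, adjusted p = 0.0133) and 4 more. The counts depended on the tool, since DESeq2 called 3 other S phase and 12 other G2/M genes higher and limma-voom 0 and 8. *Lbr* had 2174, 2036, 1496, 2342 and 2557 normalized counts in WT and 3163, 3619, 3407, 2919 and 3556 in *Zfp36*ΔARE libraries, with no overlap. The score difference between these lists was 0.87, 0.84, 0.85, 0.93 and 0.95 in WT and 1.002, 1.02, 1.06, 1.02 and 0.96 in *Zfp36*ΔARE libraries. Every *Zfp36*ΔARE value was above every WT value here, by a mean of 0.125.

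The regulators around the cycle moved in both directions. Of 10 pocket proteins and E2F factors, 5 rose past the test and 2 fell. *E2f2*, an activator of S phase genes, had 1027, 1100.2, 617, 1259 and 1472 normalized counts in WT and 1620.1, 2151, 2175, 1537 and 1913 in *Zfp36*ΔARE libraries (log2 fold change 0.78, standard error 0.20, adjusted p = 0.0172), without overlap. *E2f7*, an atypical repressor induced in S phase, had 273, 186, 151, 286 and 288 and 276, 469, 481, 346 and 465 (log2 fold change 0.78, standard error 0.22, adjusted p = 0.0219), overlapping through *Zfp36*ΔARE replicate 1. *E2f3* (log2 fold change 0.41, standard error 0.11, adjusted p = 0.0179), *E2f4* and the retinoblastoma gene *Rb1* also rose, while the pocket protein *Rbl2* (log2 fold change -0.26, standard error 0.074, adjusted p = 0.0237) and *E2f6* fell. Of 7 CDK inhibitors *Cdkn1b* (p27) rose (log2 fold change 0.26, standard error 0.082, adjusted p = 0.0338) and *Cdkn2c* (p18) fell (log2 fold change -0.47, standard error 0.13, adjusted p = 0.0227), and 5 did not pass. Of 6 CDKs and checkpoint kinases *Cdk4* (log2 fold change 0.33, standard error 0.11, adjusted p = 0.0374) and *Chek2* (log2 fold change 0.31, standard error 0.086, adjusted p = 0.0206) rose and *Wee1*, the kinase that holds CDK1 inactive, fell (log2 fold change -0.29, standard error 0.081, adjusted p = 0.0214).

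The hair matrix and precortex score was set beside these genes, and it separated the groups more clearly than they did. Of its 10 genes 7 had all *Zfp36*ΔARE libraries above all WT libraries, against 11.2% of all genes, while *Shh*, *Msx1* and *Foxq1* overlapped. How much of the score comes from dividing matrix cells was not tested. Of the 10 hair matrix and precortex genes 8 rose past the test, with a median log2 fold change of 1.26. Among them were *Foxq1* (log2 fold change 1.23, standard error 0.28, adjusted p = 0.0118), *Msx2* (log2 fold change 1.48, standard error 0.38, adjusted p = 0.0164) and *Dlx3* (log2 fold change 1.17, standard error 0.32, adjusted p = 0.0204), transcription factors of the differentiating follicle. Not past edgeR's test were *Shh* (log2 fold change 0.30, standard error 0.24, adjusted p = 0.345) and *Krt85* (log2 fold change 2.28, standard error 0.86, adjusted p = 0.0627). The hair matrix score was 5.17, 5.58, 3.79, 5.99 and 6.09 in WT and 6.65, 7.00, 7.13, 6.53 and 6.62 in *Zfp36*ΔARE libraries. The lowest *Zfp36*ΔARE value was 6.53 and the highest WT value 6.09. The hair shaft keratins had a median log2 fold change of 2.30 (1 of 9 past the test, *Krt32*, and 8 of 9 in DESeq2) and the inner root sheath genes 1.36 (0 of 7 past edgeR's test, 6 at an unadjusted p below 0.05, and 4 of 7 in DESeq2). Basal keratinocyte genes had a median of -0.17, with *Itga6* and *Itgb4* (2 of 7) lower past the test and none higher, and their score, between 9.28 and 9.64 in WT and between 9.02 and 9.57 in *Zfp36*ΔARE libraries, overlapped. The suprabasal genes had -0.36, with *Ivl* higher past the test (1 of 4), and the stress keratins had 0.23 (0 of 4 past the test in edgeR, DESeq2 or limma-voom, and 0 at an unadjusted p below 0.05).

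Other tissue components moved with the genotype as well. Every gene of the macrophage, endothelial, adipocyte, skeletal muscle and fibroblast lists had a log2 fold change below 0. Macrophage genes were lower past the test in 6 of 6 (median -1.36, scores from 6.10 to 7.07 in WT and from 5.10 to 5.79 in *Zfp36*ΔARE libraries), endothelial genes in 4 of 4 (median -1.07), adipocyte genes in 4 of 6 (median -1.11), skeletal muscle genes in 5 of 6 (median -1.51) and fibroblast genes in 3 of 6 (median -0.58). T cell genes had a median of 0.034, 0 of 5 past the test with any of the 3 tools and 0 at an unadjusted p below 0.05. The part of these components in the cell cycle values was not tested.

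**Figure D4:**
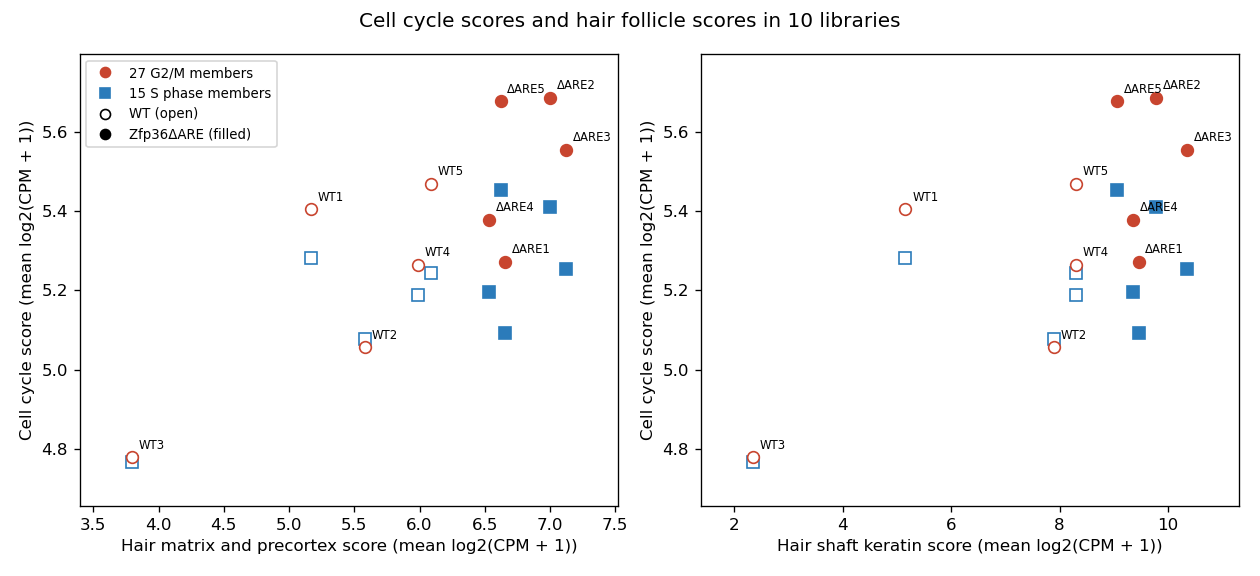
Mean log2(CPM + 1) of the 27 G2/M genes (red circles) and the 15 S phase genes (blue squares) in each library against the hair matrix and precortex score (left) and the hair shaft keratin score (right), with WT open, Zfp36ΔARE filled and the library named beside its G2/M point. Zfp36ΔARE libraries lie to the right of all WT libraries in both panels, WT3 is lowest on both axes, and WT1 has high cell cycle scores at low hair scores.

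The order of libraries by hair matrix score and by cell cycle genes matched in WT apart from replicate 1, and differed among *Zfp36*ΔARE libraries. WT replicates 3, 2, 4 and 5, in that order from low to high, were at 3.79, 5.58, 5.99 and 6.09 in the hair matrix score, at 4.77, 5.08, 5.19 and 5.24 in the S phase score and at 4.78, 5.06, 5.26 and 5.47 in the G2/M score. WT replicate 1 was second lowest in the hair matrix score (5.17), and also low in the hair shaft score (5.15). Yet it had the highest S phase score of WT (5.28). It was above the WT mean in 46 of 47 members and below it in 1 (2.13%), while 53.7% of all tested genes were below it. In *Zfp36*ΔARE skin, replicate 1 had a hair matrix score of 6.65, between those of replicates 5 and 2, with the lowest S phase (5.09) and G2/M (5.27) scores of its group. Since the groups were separate in the hair matrix score, no correlation over all 10 libraries was computed.

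In a model with genotype and hair matrix score together, the slope is the log2 change of a gene per unit of score among libraries of the same genotype. It was above 0 in 46 of 47 members, with a median of 0.23 and a range from -0.10 in *Ccnd3* to 0.55 in *Mybl2*. Over all 15543 tested genes it was above 0 in 7761, with a median of -0.00038. A positive slope passed the test in 6 members (12.8%, against 6.59% of all genes; edgeR's quasi-likelihood test). *Mybl2* had 0.55 (standard error 0.082, adjusted p = 0.00480), *Rrm2* 0.28 (standard error 0.069, adjusted p = 0.0272), *Ube2c* 0.32 (standard error 0.085, adjusted p = 0.0355), *Plk1* 0.36 (standard error 0.10, adjusted p = 0.0461), *Kif11* 0.31 (standard error 0.086, adjusted p = 0.0444) and *Ccne1* 0.29 (standard error 0.084, adjusted p = 0.0489). By group the median slope was 0.20 in S phase and 0.25 in G2/M genes, with 2 of 15 and 4 of 27 past the test, and 0 of 9 among the licensing genes. The count depended on single libraries. It was 0 without WT replicate 3, 1 without WT replicate 4, 2 without WT replicate 5 or *Zfp36*ΔARE replicate 2, 3 without *Zfp36*ΔARE replicate 4 and 12 without WT replicate 1, and between 4 and 8 without any of the other 4. The median slope was 0.10 without WT replicate 3 and between 0.21 and 0.26 without any other library. With the hair shaft keratin score in place of the hair matrix score 3 passed, and with the 8 matrix genes that are not keratins 8 passed.

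At equal hair matrix score, the genotype difference had a median log2 value of -0.047 over the members and was below 0 in 33 of 47. Over all 15543 tested genes the median was -0.0056, and 7971 were below 0. No member passed the test in either direction (0 of 47 in edgeR, also 0 at an unadjusted p below 0.05), and of all 15543 genes 0 were higher (0%) and 1 was lower, with 1163 at an unadjusted p below 0.05. The largest value was in *Mycn* at 0.41 (standard error 0.26, adjusted p = 0.770), followed by *Ccnd2* at 0.15 (standard error 0.14, adjusted p = 0.871). *Mki67* was at -0.043 (standard error 0.20, adjusted p = 0.986) and *Top2a* at -0.00045. The origin licensing genes were below 0 in 9 of 9, with a median of -0.18. The median over members changed sign with the hair shaft keratin score (0.065) and when WT replicate 3 (0.074), WT replicate 5 (0.00080) or *Zfp36*ΔARE replicate 1 (0.0042) was left out. Because the groups did not overlap in the score, this fit compares them beyond any range that they shared. The hair matrix score and the genotype cannot be told apart.

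TTP binds the word UAUUUAU in the 3′-UTRs of its target mRNAs. In the annotated 3′-UTRs (GENCODE vM21, GRCm38), TATTTAT was present in 11 of 47 members (23.4%) and in 27.9% of 14383 tested genes. The matches in 3 of the cyclins are shown because D, A and B cyclins act at different stages of the cycle. They lie at chr7:144931311-144931337, minus strand (*Ccnd1*), chr3:36565687-36565713, minus strand (*Ccna2*) and chr13:100779237-100779263, minus strand (*Ccnb1*), with the word in capitals.
*Ccnd1*: tacagaagagTATTTATgggaaaggct
*Ccna2*: ggagacatttTATTTATcaactttaac
*Ccnb1*: tttatgtaatTATTTATttgttcttaa

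None of these 3 mRNAs was lower in *Zfp36*ΔARE skin (log2 fold changes 0.33, 0.40 and 0.36). Over members, the median log2 fold change was 0.26 with the word and 0.29 without it. *Ccnd2*, *Ccnd3*, *Myc*, *Mycn* and *Ccne1* had no match in the annotated 3′-UTR. Steady-state levels do not measure decay, and a match of letters is not a binding site.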

How the data were processed

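RNA from whole treated skin of 5 WT and 5 *Zfp36*ΔARE mice was sequenced. The authors removed low-quality reads, mapped the rest to mm10 with STAR 2.5.2b, counted fragments per gene with featureCounts (Subread 1.5.0-p1) and deposited raw counts of 24454 rows, unnormalized. How strand and fragments matching several genes were treated is not given in the sources used here. The 2 rows with no gene name (7.38e-05% of counts) were left out.

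With edgeR 4.0.16 in R 4.3.3, counts were scaled by TMM, filtered with filterByExpr, and fitted by the robust quasi-likelihood model with genotype as the only term, or with the hair matrix score added. Values are TMM-scaled counts at the mean effective library size (normalized counts). The standard error is the absolute log2 fold change divided by the square root of the F statistic, and p-values were adjusted over all 15543 genes (Benjamini-Hochberg). With 1 library per mouse, the tests set the genotype difference against the spread between mice. Scripts were tested on simulated data. Alternatives were DESeq2 1.42.0, limma-voom 3.58.1, other scalings and filters, a replicate block, a Y-linked term, and libraries left out. All 47 members could be named. Per-library values and full statistics were given for 11 genes and, in each role group, for the gene with the smallest p and that with the largest difference, and values for up to 3 genes of each other list. Where a count was 5 or fewer, its genes were named after their values were seen. The members and lists were chosen with earlier results of these data known. RefSeq promoters and GENCODE vM21 gave the sequences. *Flg*, 1 of the 5 suprabasal genes, could not be matched.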

Additional observations from a re-analysis of the deposited data

Results flagged for a closer look

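In a search of 94 groups of 5 values (47 genes in both genotypes), chance alone flags about 1 in 20, or 4.7 groups, and 3 had a library that stood apart from the other 4. *Rrm2* was at 809 normalized counts in WT replicate 3 and from 1194.5 to 1312 in the remaining WT libraries, and *Mybl2* was at 177 there and from 384 to 435 elsewhere in WT. This is the library with the lowest hair matrix score, and without it the log2 fold change of *Mybl2* was 0.33 (adjusted p = 0.018, edgeR). *Ccnd3* was at 886 in *Zfp36*ΔARE replicate 3 and from 1081 to 1132 in the remaining *Zfp36*ΔARE libraries. No cause was tested.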

How the results depend on the processing

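DESeq2 called 11 members higher and 1 lower (7 G2/M), and limma-voom 7 higher. Over all genes DESeq2 called 3046 higher and limma-voom 2488, against 2373 in the main fit. With upper-quartile scaling or at least 10 counts in every library 4 were higher (1 G2/M) and 1 lower. Without a filter there were 4 (1 G2/M), and non-robust dispersions gave 6 higher and 1 lower. DESeq2 size factors kept the count at 6. The replicate numbers did not pair the mice (correlations of same-numbered deviations from -0.19 to 0.085, none highest with its own number), and a replicate block gave 3 members higher, 0 of them G2/M, with 2740 genes in all (889 higher). Leaving out 1 library gave 2 to 9 members higher (0 to 6 G2/M, 0 to 1 S phase, 2 to 3 G1), 0 to 1 lower, and 3333 to 5349 genes (1267 to 2362 higher). The S phase median stayed between 0.046 and 0.21 and the G2/M median between 0.23 and 0.39. Without WT replicates 1 and 3 together, the counts were 2 members (0 S phase, 0 G2/M) and 2504 genes (1080 higher). With the hair matrix score in the model, 1 gene and 0 members passed (0 higher).

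With a term for Y-linked counts 0 genes passed, the S phase median reversed to -0.067, and 21 members reversed: *Myc* -0.036, *Mcm2* -0.029, *Mcm3* -0.21, *Mcm4* -0.15, *Mcm5* -0.077, *Mcm6* -0.16, *Mcm7* -0.14, *Cdt1* -0.00062, *Gmnn* -0.15, *Pcna* -0.083, *Rrm1* -0.0093, *Tyms* -0.067, *Foxm1* -0.047, *Ccnb1* -0.064, *Ccnb2* -0.017, *Cdc25c* -0.11, *Aurka* -0.13, *Bub1* -0.030, *Kif20a* -0.084, *Nusap1* -0.049, *Prc1* -0.099. Without WT replicate 3 *Mcm3* (-0.019) and *Mcm6* (-0.018) reversed, as did *Mcm6* (-0.011) without *Zfp36*ΔARE replicate 2, and *Mcm3* (-0.0083) and *Mcm6* (-0.021) without *Zfp36*ΔARE replicate 5, while their highest values with 1 library left out were 0.13 and 0.088. Members with a positive hair matrix slope past the test numbered 3 with the hair shaft score, 2 with upper-quartile scaling, 3 without a filter, 0 with the replicate block and 0 to 12 with 1 library left out, where the median slope ran from 0.10 to 0.26. The genotype median at equal score ran from -0.13 to 0.074 with 1 library left out and was 0.065 with the hair shaft score. The cause of these changes was not tested. Member counts ran from 109 to 13726 per library, and the number of mice limits the precision.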

Other observations

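*Shh*, the signal that matrix cells send within the growing bulb, was chosen after its values were seen. It had 334, 153, 146, 225 and 309.5 normalized counts in WT replicates 1 to 5 and 230.05, 339, 321, 247 and 302 in *Zfp36*ΔARE replicates 1 to 5 (log2 fold change 0.30, standard error 0.24, adjusted p = 0.345 from edgeR). WT replicates 1 and 5 and *Zfp36*ΔARE replicates 2, 3 and 5 were high, the same libraries as in *Mki67*. *Foxn1* had another order, with 775, 1883, 358, 2235 and 2180.1 in WT and 3954, 4517, 5694, 3521 and 3268 in *Zfp36*ΔARE libraries. Its WT replicate 1 was low and its *Zfp36*ΔARE replicate 1 was above every WT library. Not every follicle gene differed from *Mki67* in this way. *Krt32* was low in WT replicate 1 (1060), but in *Zfp36*ΔARE libraries it had the order of *Mki67* (6076, 8842, 7558, 5677 and 8020). The same held for *Krt82* (611 in WT replicate 1, then 4417, 6273, 5383, 4000 and 5526). *Krt85*, a keratin of the forming shaft, was at 325 in WT replicate 1 and 28.1 in WT replicate 3 and between 4971 and 11786 in *Zfp36*ΔARE libraries.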
